A study of Mus musculus with 29 samples.

Results

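Aged mouse cardiac fibroblasts were compared before and after 48 h of culture on SoftY, a soft hydrogel that holds extracellular matrix of young heart. The comparison used 6 of the 29 RNA-seq libraries of the series: 3 of freshly isolated aged cells (fresh ACF) and 3 of aged cells on SoftY (ACF+SoftY), all chosen by their sample titles. SoftY is 1 of 4 DECIPHER substrates, scaffolds in which a gel of set stiffness is combined with native matrix of young or aged heart. 2 further contrasts served to show where the aged cells on SoftY differ from others: young cells, fresh (fresh YCF, 3 libraries) or on SoftY (YCF+SoftY, 2 libraries), and aged cells on StiffA (ACF+StiffA, 3 libraries), the stiff gel with aged matrix. All cells were primary fibroblasts of mouse heart, no genotype or drug is named, and the labels give neither the age of the mice in weeks nor the animals behind each library. The libraries of a group are called biological replicates, so the tests are against the spread among libraries, part of which may be technical. Fresh and cultured libraries carry different letters in their library names, so a step that follows the letter cannot be told apart from culture.

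Cardiac fibroblasts make and turn over the collagen network of the heart. A resident fibroblast that becomes a myofibroblast builds actin stress fibres marked by smooth muscle actin and deposits fibrillar collagen, fibronectin and crosslinking enzymes, while an inflammatory fibroblast secretes chemokines, cytokines and matrix-degrading proteases. Stiffness is sensed through integrins, the actin cytoskeleton and transcriptional partners such as SRF with its MRTF cofactors and YAP with TAZ, and contact with young or aged matrix adds biochemical signals.

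The 6 libraries held 1804739 to 2648312 counts each, so 10 CPM (counts per 1000000 counts of the TMM-adjusted library total) rested on 18.3 to 25.5 counts. Libraries of a group lay close together, with a root mean square log2 distance of 0.325 to 0.349 between replicates and 1.21 to 1.23 between a fresh and a cultured library. Fibroblast markers were present in every library: the 10 markers summed to 7237 to 7756 CPM in fresh cells and to 25865 to 26928 CPM on SoftY. Among the 10, 6 rose and 2 fell, and most of the SoftY sum was Col1a1, Gsn and Col3a1. Of 19 macrophage and myeloid markers, 15 were tested and those 15 fell, with sums of 593 to 640.3 CPM in fresh cells and 35.4 to 47.1 CPM on SoftY, where Adgre1, Aif1, Fcgr1, Ms4a7, Ptprc and Spi1 had 0 counts in all 3 libraries. In these bulk samples fewer cells of a type and less RNA per cell cannot be told apart. Neutrophil markers summed to 54.5 to 65.9 CPM fresh and 6.61 to 9.27 CPM on SoftY, lymphocyte markers to at most 2.89 CPM fresh, and cardiomyocyte markers to 6.22 to 12.5 CPM fresh and 23.4 to 36.04 CPM on SoftY. Of the 15 cardiomyocyte markers only 2 were tested, and both rose. On SoftY 9 of the 15 had 0 counts, against 5 in fresh cells. Myh6, Myl2, Nppa, Nppb and Pln had counts in fresh cells and 0 counts on SoftY.

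Most of the measured genes differed between fresh aged cells and aged cells on SoftY. The 48 h of culture, the time since isolation and the SoftY substrate change together in this comparison and cannot be told apart. Among 13523 genes tested, 3711 (27.4%) were higher on SoftY and 3727 (27.6%) were lower at an adjusted p under 0.05 of edgeR's quasi-likelihood test, together 55.0%. Of these, 2215 rose and 1843 fell more than 2-fold (16.4% and 13.6% of the genes tested), 948 and 620 more than 4-fold, and 228 and 197 more than 16-fold. For 8461 genes (62.6%) the 3 fresh and the 3 SoftY libraries did not overlap, and the median gene moved by 0.01 on the log2 scale. That median and the even split depend on the TMM scaling: with library totals alone the median was 0.10, with 4131 genes higher and 3283 lower. In what follows "rose" and "fell" stand for an adjusted p under 0.05, changes are log2 folds of SoftY over fresh ± SE, and counts of a list are over the members with enough reads to be tested, some of which were tested only because they were high in 1 of the groups. A list whose share of calls is close to these percentages does not stand apart from the rest of the genes.

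The 12 largest rises held several secreted and matrix genes. Ccn5, a matricellular member of the CCN family (chromosome 2 from 163662781 to 163675067 in mm39), stood at 2.07, 3.33 and 2.36 CPM in the fresh libraries and at 2328, 2415 and 2419 CPM on SoftY, a log2 change of 9.82 ± 0.16 (adjusted p = 1.88e-29). No fresh library came near the SoftY range. The lymphatic growth factor Vegfd went from 7.47, 6.66 and 6.30 to 962, 1022 and 947 CPM (7.15 ± 0.10, adjusted p = 2.74e-30). Ptn, the heparin-binding growth factor pleiotrophin, had 3 counts over the fresh libraries and 372, 362 and 392 CPM on SoftY, a ratio of 923-fold (95% exact counting interval 315 to 4477). Col28a1 had no count in a fresh library and 284, 295 and 292 CPM on SoftY, at least 711-fold higher when 3 counts over the fresh group are taken as the floor. By the same floor Col11a1 was at least 318-fold higher, Scel, which encodes sciellin, at least 368-fold, Aoc3, an amine oxidase of the cell surface, at least 83.4-fold, Ecrg4 at least 82.6-fold, Bmp3 at least 57.2-fold and Kif26b at least 55.3-fold. Fmod, a collagen-binding proteoglycan, and Cnmd, the angiogenesis inhibitor chondromodulin, complete the 12 largest rises, with ratios of 206-fold (95% exact counting interval 70.2 to 1004) and 237-fold (95% exact counting interval 42.02 to 9391).

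The 12 largest falls held several secreted inflammatory and proteolytic genes. Csf3, the granulocyte colony-stimulating factor (chromosome 11 from 98592089 to 98594456 in mm39), read 2217, 2146 and 2071 CPM in fresh cells and had 0 counts in the 3 SoftY libraries, at least 4683-fold lower. Mmp13, an interstitial collagenase (chromosome 9 from 7272514 to 7283332), fell from 2544, 2625 and 2572 CPM to 0, 2.19 and 0 CPM (-11.92 ± 0.30, adjusted p = 1.21e-24). Only 1 of the 3 SoftY libraries held a count of it. The stromelysin Mmp10 went from 1339, 1313 and 1277 to 1.29, 0.548 and 2.07 CPM (-9.84) and Serpinb2, an inhibitor of plasminogen activators, from 2523, 2648 and 2508 to 2.16, 2.74 and 3.73 CPM (-9.76). Both were near 0 after culture. Penk, the enkephalin precursor, was at least 482-fold lower, Il1rl1, the IL-33 receptor, at least 122-fold, Sprr2h, of the small proline-rich proteins, at least 117-fold (its call was lost with DESeq2), Il1a at least 69.2-fold, the chemokine Ccl3 at least 101-fold, the MHC class II chaperone Cd74 at least 105-fold and the macrophage gene Adgre1 at least 85.00-fold. Akr1c18, a progesterone-metabolizing enzyme, had 1 count on SoftY against a mean of 137 CPM fresh, a ratio of 895-fold (95% exact counting interval 160.3 to 35392). Cd74, Adgre1, Ccl3 and Il1a are genes that myeloid cells express strongly, and the myeloid marker sums above moved with them: the part of such cells in these falls was not tested.

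**Figure D1:**
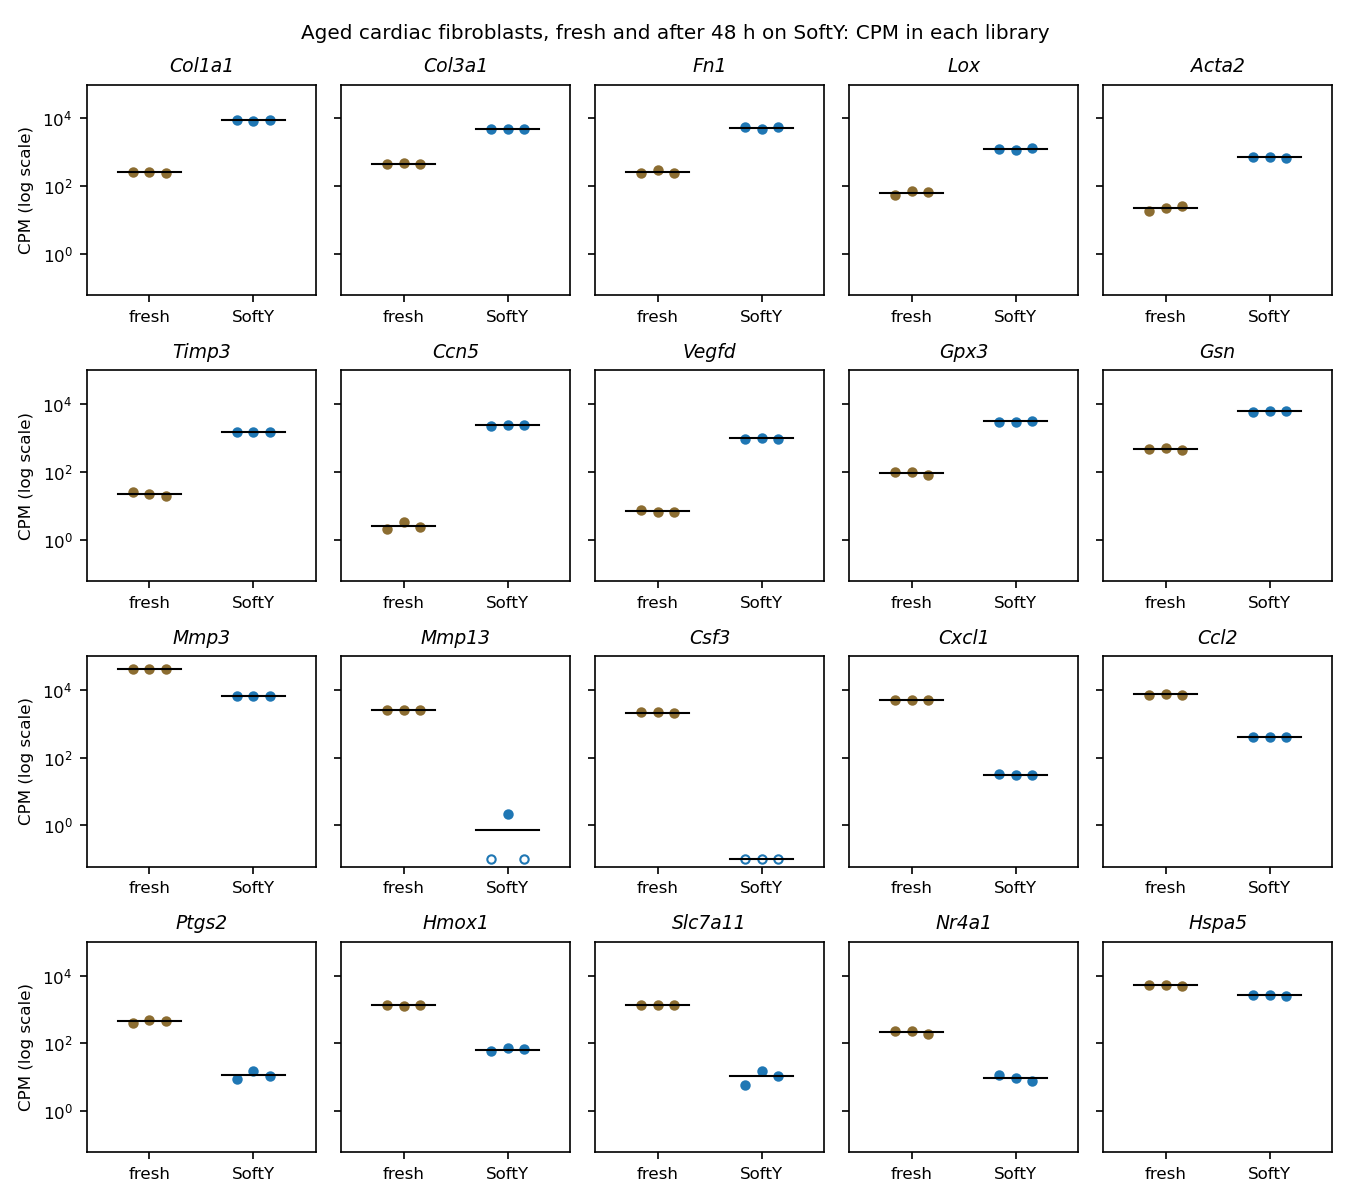
CPM of 20 genes on a log axis in each of the 3 fresh and 3 SoftY libraries of aged cells, as points, with the mean of each group as a bar and values of 0 drawn as open points at the lower end. The groups do not overlap for any of the 20 genes: the matrix and secreted genes of the first 10 panels lie higher on SoftY, and the proteases, cytokines and stress genes of the last 10 panels lie lower. Of all genes tested 62.6% do not overlap, and for genes named as the largest changes this was a condition of the choice.

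Interstitial collagen genes rose together. Fibrillar collagens give heart tissue its tensile strength, and 8 of 11 listed were tested: those 8 rose, with a median log2 change of 3.57 against 0.01 over all genes. Col1a1, the alpha-1 chain of type I collagen, was at 265, 263 and 243 CPM in fresh cells and at 9018, 8630.1 and 8995 CPM on SoftY (5.11 ± 0.08, adjusted p = 1.56e-29). Its partner chain Col1a2 went from 177, 192 and 152 to 2413, 2306 and 2253 CPM (3.74), and Col3a1 from 456, 471 and 441 to 4706, 4715 and 4989 CPM (3.40). For each chain the lowest SoftY library stood far above the highest fresh one. Col5a2, a regulator of fibril diameter, rose by 2.42 and Col27a1 by 4.04 from under 1 CPM. Of 22 other collagens 12 were tested and those 12 rose (median 3.21), among them Col6a1 (5.16), Col14a1 (4.75), Col12a1 (4.41), Col6a2 (3.10) and Col8a1 (1.59).

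The enzymes that fold, trim and crosslink collagen followed. Of 31 tested, 26 rose and 2 fell (median 1.18). Lox, the lysyl oxidase that starts crosslinking, stood at 53.9, 70.4 and 67.3 CPM fresh and 1205, 1181 and 1311 CPM on SoftY (4.27 ± 0.15, adjusted p = 7.27e-21), a rise in every library. Adamts2, a procollagen N-proteinase, rose by 3.20, Pcolce, an enhancer of C-terminal processing, by 2.76, Plod2, a lysyl hydroxylase, by 2.73, and P4ha1, a prolyl hydroxylase, by 1.82. Loxl1 rose by 1.19, Sparc by 1.30 and the collagen chaperone Serpinh1 by 0.94 from a fresh mean of 4388 CPM. P4hb, the subunit shared with protein disulfide isomerase, was at 802 ± 12.98 CPM fresh and 753 ± 31.6 CPM on SoftY (mean ± SD, n = 3), and did not pass the test.

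Elastic fibre and basement membrane genes also rose for the most part. Among 17 elastin and microfibril genes 13 rose and 3 fell (median 2.84). The 3 falls became 1 with library totals or upper quartile factors as the scaling, or without fresh library 1, SoftY library 2 or SoftY library 3. Mfap4, a microfibril-associated protein, went from 2.07, 3.33 and 1.97 to 336, 341 and 381 CPM (7.14), Efemp1 rose by 5.15, Mfap2 by 4.69, Eln, elastin itself, by 4.42 to a mean of 24.4 CPM, Emilin1 by 2.89 and Fbln2 by 2.81. Of 18 basement membrane genes 13 rose and 2 fell (1 without fresh library 1 or SoftY library 3), the rises including the type IV collagen chains Col4a1 (1.38), Col4a2 (1.83), Col4a5 (3.50) and Col4a6 (4.53) and the laminins Lamb1 (1.14) and Lamb2 (1.75).

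Matricellular genes and proteoglycans moved in both directions. Matricellular proteins tune how cells bind the matrix without being structural, and 11 of 19 rose while 7 fell. Fn1, fibronectin, stood at 251, 302 and 248 CPM fresh and 5553, 4935 and 5587 CPM on SoftY (4.33 ± 0.10, adjusted p = 2.17e-25). Postn, periostin, a marker of activated fibroblasts, rose from 0.415, 1.25 and 1.97 to 49.1, 43.3 and 35.3 CPM (5.06). Cthrc1 rose by 5.08 and Ccn4 by 6.14. Tenascin C, Tnc, fell from a mean of 4550.2 to 1292 CPM (-1.82), osteopontin, Spp1, fell by 3.77 to a mean of 66.04 CPM, Ccn1 changed by -0.92 and Thbs1 by -0.59, while Ccn2 rose by 0.66. Of 20 proteoglycan and hyaluronan genes 12 rose and 6 fell. Biglycan, Bgn, rose by 2.92, Prelp by 4.27, Aspn by 4.46 and Sdc4 by 1.37, whereas decorin, Dcn, went from 3719.8, 3832 and 3726 to 2068, 2039 and 2267 CPM (-0.82) and the hyaluronan synthase Has1 changed by -4.80.

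Proteases and their inhibitors split. Of 30 tested, 16 rose and 13 fell. Mmp3, stromelysin 1, took the largest share of reads of any gene in fresh aged cells, 42156, 42601 and 40272 CPM, and stood at 6654, 6749 and 6611 CPM on SoftY (-2.64 ± 0.05, adjusted p = 2.96e-27). It was still expressed in every SoftY library, unlike Mmp13. Timp3, the matrix-bound metalloproteinase inhibitor, rose from 25.7, 22.9 and 18.9 to 1502, 1462 and 1546 CPM (6.06) while Timp1 went from 417, 440.4 and 435 to 171, 198 and 176 CPM (-1.25), so that the 2 inhibitors moved in opposite directions. The aggrecanase Adamts5 rose by 3.30, and Mmp8, the neutrophil collagenase, changed by -2.70.

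Most smooth muscle contractile genes rose, some of them from low levels, while the 20 listed summed to 6043 to 6252 CPM fresh and 6871 to 7059 CPM on SoftY. 13 of 19 tested members rose and 4 fell (median 0.82). Acta2, smooth muscle actin and the defining marker of myofibroblasts (ENSMUSG00000035783, chromosome 19 from 34218490 to 34232991 in mm39), was at 17.8, 22.9 and 26.4 CPM fresh and 700.2, 715 and 680.2 CPM on SoftY (4.96 ± 0.16, adjusted p = 6.05e-22). Cnn1, calponin, went from 1 count over the fresh libraries to 12.9, 9.31 and 12.03 CPM, a ratio of 85.2-fold (95% exact counting interval 14.8 to 3411). Lmod1, leiomodin, rose by 4.43 and Myl9, a regulatory light chain, from 18.3, 17.1 and 10.2 to 154, 142 and 159.8 CPM (3.32). General actomyosin genes moved little or fell: Myh9 rose by 0.49 and Tpm1 by 0.48, Tpm4 changed by -0.25 and Cald1 by -0.61. Of 25 cytoskeletal and focal adhesion genes 13 rose and 7 fell: Vcl, vinculin, rose by 2.33, Palld by 2.14 and Parva by 1.17, while Actb changed by -0.38 and Pfn1, profilin, by -0.97. Among 11 tubulins 3 rose and 6 fell, with the neuronal isotype Tubb3 at 10.8, 4.995 and 10.6 CPM fresh and 191, 192 and 178 CPM on SoftY (4.40).

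SRF acts on such genes through the CArG box. Promoters from RefSeq (GRCm38.p6, 250 bases before the start) were searched on both strands, as a description with no test, and 17 of 20 contractile genes had an entry: 3 of their 19 promoters held a CArG box, against 1.47% of 32851 promoters in the table. The Myl9 promoter (chr2:156775214-156775463, + strand) is shown because it holds one, in capitals.
Myl9: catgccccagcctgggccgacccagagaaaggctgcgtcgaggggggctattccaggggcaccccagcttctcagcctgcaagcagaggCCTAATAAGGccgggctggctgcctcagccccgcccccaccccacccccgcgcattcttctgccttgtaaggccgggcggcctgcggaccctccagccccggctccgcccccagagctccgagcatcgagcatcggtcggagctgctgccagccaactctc

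Matrix receptors changed in both directions. 9 of 18 integrin and collagen receptor genes rose and 4 fell. Itga11, a collagen receptor of fibroblasts, went from 2.90, 2.08 and 5.12 to 80.2, 59.2 and 71.8 CPM (4.36), Itga8 rose by 4.77 and Itga1 by 3.66, and the common partner Itgb1 rose by 0.86. Itga5, the fibronectin receptor chain, fell from 818, 782 and 756 to 302, 293 and 291 CPM (-1.41), and Itga2 changed by -4.04. TGF-beta pathway genes were split, 10 up and 9 down of 26: the ligands Tgfb2 (3.48) and Tgfb3 (3.36), the activin subunit Inhbb (3.30) and the inhibitory Smad6 (3.13) rose, and Lrrc32, which holds latent TGF-beta at the surface, changed by -1.18. YAP and TAZ targets were split as well, 10 up and 6 down of 24: Amotl2 rose by 1.35, while Ankrd1 went from 1514, 1583 and 1544 to 759.7, 737 and 749 CPM (-1.05), F3 changed by -0.83, Axl by -0.49 and Dock5 by -2.52. For both lists the median lay near that of all genes (0.11 and -0.01).

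Secreted growth factor genes and their antagonists rose in most families. Of 18 BMP pathway genes 11 rose and 4 fell: Gdf6 went from 2.49, 0.833 and 1.18 to 143, 120.0 and 224 CPM (6.71), Id3, a BMP target, rose by 0.74, and Grem1, a BMP antagonist, changed by -3.35. Wnt pathway genes rose in 10 of 15 and fell in 2 (4 and 1 among members with a mean of at least 10 CPM), with the secreted antagonists Sfrp1 at 43.6, 55.4 and 55.1 CPM fresh and 2480.3, 2286 and 2537 CPM on SoftY (5.57 ± 0.13), Sfrp2 up by 4.48, Dkk3 by 4.57 and Frzb by 0.72. The receptor Fzd2 rose by 4.90. On the IGF axis 10 of 15 rose and 3 fell: Igf1 rose from 13.7, 9.57 and 13.4 to 166, 153 and 182 CPM (3.77), its receptor Igf1r by 1.83, Igfbp4 by 3.71 and Pappa, the protease that cleaves it, by 6.71, while Igfbp3 changed by -3.12. Among 31 other growth factors and receptors 12 rose and 5 fell. Pdgfd rose by 6.16, Mdk, midkine, by 3.73 and Pdgfrb by 1.44, and Pdgfra, the receptor that marks fibroblasts, went from 1479, 1679 and 1391 to 1076, 1106 and 1073 CPM (-0.48).

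Immediate early genes, which respond within minutes to growth factors and stress, fell in 28 of 41 cases and rose in 6 (median -1.47). Nr4a1, an orphan nuclear receptor, was at 233, 234 and 192 CPM fresh and 11.6, 9.31 and 7.47 CPM on SoftY (-4.53 ± 0.20, adjusted p = 1.67e-18). Egr1 went from 692, 713 and 690.2 to 135, 164 and 177 CPM (-2.14) and Junb from 1698, 1653 and 1485 to 533, 542 and 514 CPM (-1.61). In each of these the lowest fresh library stood well above the highest SoftY library. Ier3 changed by -4.73, Fosl1 by -4.32 and Errfi1, a feedback inhibitor of EGF receptors, by -3.18, and Dusp5 had no count on SoftY, at least 23.5-fold lower. Fos was low in both groups, 24.1, 18.3 and 19.3 and 14.7, 12.1 and 10.4 CPM (-0.73, adjusted p = 0.0322), and its call was lost with library totals, upper quartile factors, limma voom, a fit of the aged libraries only, or any of 3 single libraries left out (fresh 1, SoftY 2 or SoftY 3). 34 of 44 listed genes had RefSeq promoters, 45 in all: 4 held TGACGTCA, the full CRE (1.55% of all promoters), and 7 a CArG box. Dusp1, a phosphatase that switches off MAP kinases, was chosen for its CRE: it went from 359.6, 404 and 382 to 244, 261 and 282 CPM (-0.54), and its promoter is printed in the direction of the gene with the match in capitals (chr17:26508473-26508722, - strand).
Dusp1: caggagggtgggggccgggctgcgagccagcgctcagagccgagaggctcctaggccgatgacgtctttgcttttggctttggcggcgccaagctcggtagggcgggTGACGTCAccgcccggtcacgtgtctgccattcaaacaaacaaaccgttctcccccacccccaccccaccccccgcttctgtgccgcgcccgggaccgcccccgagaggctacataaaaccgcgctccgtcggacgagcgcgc

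Inflammatory mediators fell in large part. Chemokines fell in 17 of 21 cases and rose in 3 (median -3.15). The neutrophil attractant Cxcl1 stood at 4957, 4949 and 4974 CPM fresh and 33.2, 29.6 and 31.5 CPM on SoftY (-7.30 ± 0.15, adjusted p = 1.32e-26), Cxcl5 at 6590.5, 7334 and 7399 and 423, 483 and 622 CPM (-3.80), and the monocyte attractant Ccl2 at 7289, 7357 and 7249.6 and 413, 415 and 399 CPM (-4.16). All 3 kept measurable levels in each SoftY library. Ccl7 changed by -3.12, Cxcl3 had 3 counts over the SoftY libraries against a fresh mean of 219 CPM, a ratio of 478-fold (95% exact counting interval 163 to 2319.8), and Ccl4 was at least 50.8-fold lower. Cytokine genes fell in 16 of 25 cases and rose in 8: Il6 went from 201, 249.8 and 265 to 37.1, 38.9 and 41.1 CPM (-2.61), and Csf1, the macrophage growth factor, from 9973, 10262 and 9476 to 4232, 4417 and 4277 CPM (-1.20), while the receptor subunits Il6st and Osmr rose by 1.59 and 0.56. NF-kB feedback and adhesion targets fell in 15 of 23 and rose in 3, with Nfkbia at -3.03, Tnfaip3 at -3.46, Vcam1 at -2.03 and the mitochondrial dismutase Sod2 at -3.13. Prostaglandin synthesis fell in 7 of 12 and rose in 3: Ptgs2, the inducible cyclooxygenase, went from 403, 475 and 462 to 9.05, 14.8 and 10.8 CPM (-5.29 ± 0.23, adjusted p = 1.38e-18) and Ptges, the prostaglandin E synthase, changed by -3.91.

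NF-kB binds a partly degenerate kB site. 20 of 28 listed chemokines had RefSeq entries, and 6 of their 21 promoters held the site, against 7.25% of all. In the other lists searched 14.3% to 16.2% of promoters held it. Those of the neighbouring genes Cxcl1 (chr5:90890995-90891244, + strand) and Cxcl2 (chr5:90903649-90903898, + strand) are set side by side because both hold it, in capitals. Cxcl2 went from 257, 275 and 294 CPM in fresh cells to 1.29, 0 and 0.415 CPM on SoftY (-8.70), where 1 of the 3 libraries had no count of it.
Cxcl1: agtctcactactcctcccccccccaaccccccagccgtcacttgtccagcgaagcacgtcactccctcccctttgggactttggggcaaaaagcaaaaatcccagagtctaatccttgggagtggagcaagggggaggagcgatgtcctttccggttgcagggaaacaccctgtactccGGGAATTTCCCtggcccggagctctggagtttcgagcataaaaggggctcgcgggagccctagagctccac
Cxcl2: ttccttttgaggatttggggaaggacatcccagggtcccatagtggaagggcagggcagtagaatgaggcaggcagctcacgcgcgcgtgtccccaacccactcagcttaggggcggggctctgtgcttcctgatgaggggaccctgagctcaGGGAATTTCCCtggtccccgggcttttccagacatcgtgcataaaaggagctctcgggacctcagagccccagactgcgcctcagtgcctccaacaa

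Interferon-stimulated genes, the antiviral programme of the cell, fell in 30 of 41 and rose in 4 (median -1.21). Irf7, which amplifies interferon production, went from 382, 370.1 and 391 to 62.1, 66.3 and 75.9 CPM (-2.48), Zbp1, a nucleic acid sensor, from 226, 259 and 258 to 19.8, 26.8 and 16.6 CPM (-3.57), and Bst2, tetherin, from 416, 395 and 430.4 to 78.5, 94.2 and 96.3 CPM (-2.21). Oasl1 changed by -3.18, Rsad2 by -2.84 and Ifit3, which has a near-identical copy, by -1.04. MHC class I and immunoproteasome genes fell in 14 of 19 and rose in 0 (1 with library totals or upper quartile factors, or without fresh library 1 or SoftY library 1), among them B2m (-0.99), H2-D1 (-0.95), H2-K1 (-0.91) and H2-T22 (-2.51), whose reads may be shared between class I copies. 31 of 44 listed interferon genes had RefSeq promoters, and 19 of these 37 held 2 GAAA runs 2 bases apart, a core that interferon regulatory factors bind, against 2.98% of all. Isg15, a ubiquitin-like modifier chosen for its matches, went from 258, 271 and 274 to 29.3, 47.1 and 39.4 CPM (-2.80), and its promoter (chr4:156200819-156201068, - strand) shows overlapping copies in capitals.
Isg15: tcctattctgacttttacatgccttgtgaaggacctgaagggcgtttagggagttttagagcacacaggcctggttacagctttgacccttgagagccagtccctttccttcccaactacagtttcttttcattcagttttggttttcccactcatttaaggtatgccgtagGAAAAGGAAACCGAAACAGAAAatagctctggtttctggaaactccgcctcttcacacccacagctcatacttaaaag

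Complement and acute phase genes went the other way from the chemokines. Of 20 tested, 14 rose and 5 fell (median 2.26). Serping1, the C1 inhibitor, rose from 535, 505 and 507 to 3495, 3674 and 3571 CPM (2.80 ± 0.06, adjusted p = 3.14e-26), and C3 from 111, 104 and 115 to 570.4, 508 and 603 CPM (2.34). Serpina3n, an acute phase protease inhibitor, rose by 5.21. Lcn2, lipocalin 2, fell from 88.8, 88.7 and 89.8 to 1.72, 4.38 and 3.73 CPM (-4.77), and the pentraxin Ptx3 changed by -2.28.

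**Figure D2:**
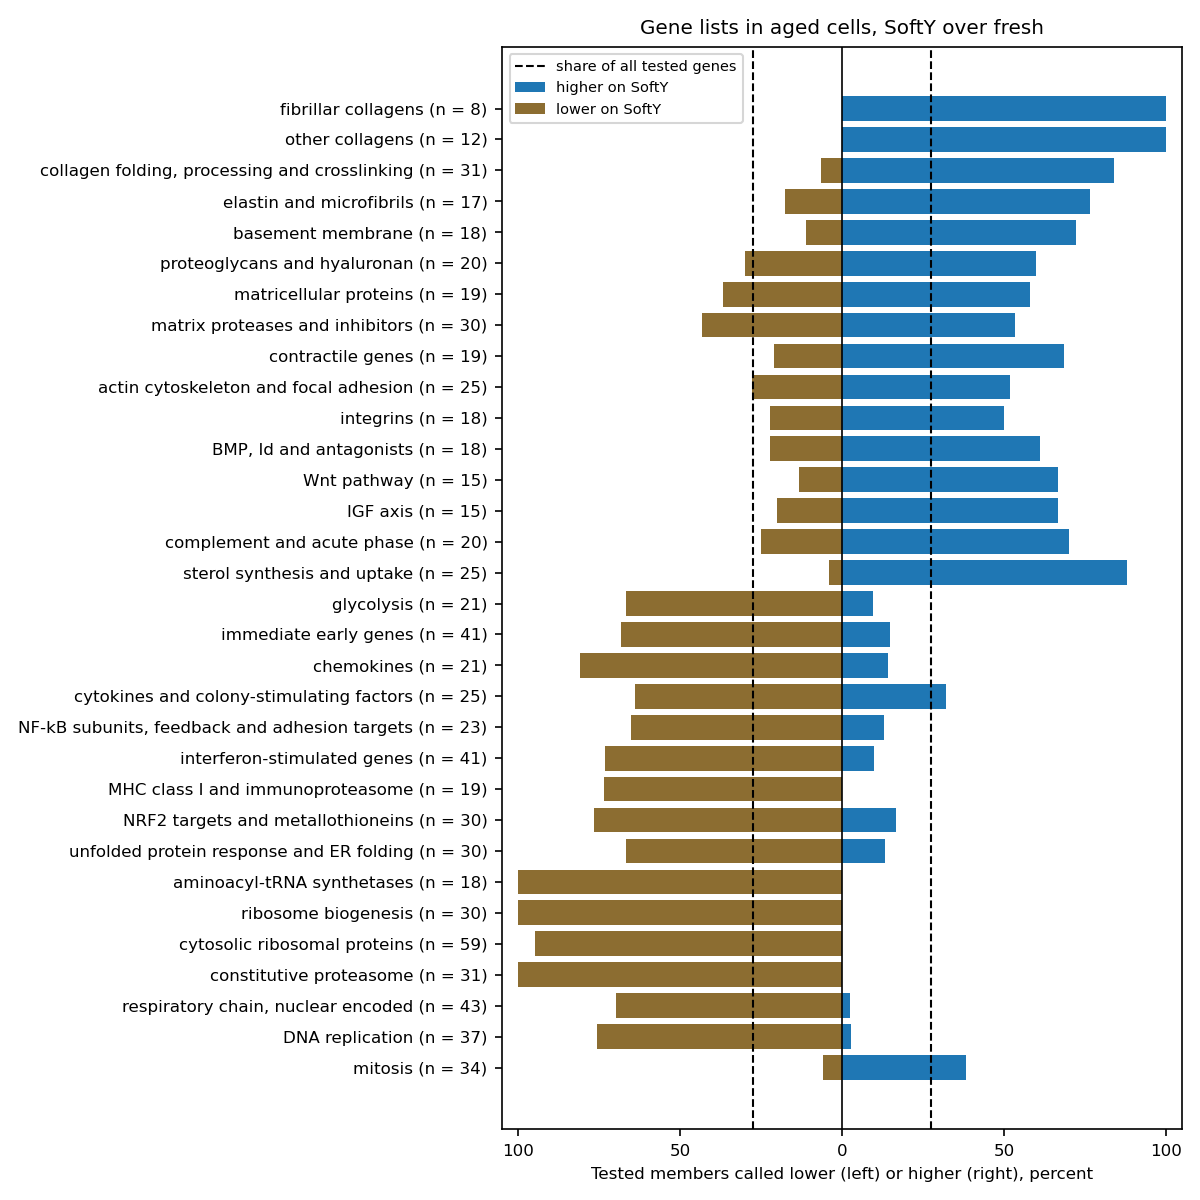
Share of the tested members of 32 gene lists that were called lower (bars to the left) or higher (bars to the right) on SoftY than in fresh aged cells, in percent, with the number tested in brackets and dashed lines at the shares over all 13523 genes. Collagens lie at the far right and ribosome biogenesis, tRNA synthetases and the proteasome at the far left.

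Among stress-response lists, NRF2 targets and unfolded protein response genes mostly fell, and heat shock and ATF4-dependent genes were mixed. NRF2 targets, which defend against oxidants, fell in 23 of 30 and rose in 5 (median -1.78). Slc7a11, the cystine transporter, stood at 1352, 1359 and 1393 CPM fresh and 6.04, 15.3 and 11.2 CPM on SoftY (-7.01 ± 0.21, adjusted p = 8.09e-23), Hmox1, heme oxygenase 1, at 1334, 1273 and 1325 and 57.8, 71.2 and 67.6 CPM (-4.32), and Fth1, ferritin heavy chain, at 6810.3, 7111 and 7349 and 611, 647 and 742 CPM (-3.41). The secreted peroxidase Gpx3 was the exception in size, at 96.2, 97.8 and 81.1 CPM fresh and 3012, 3056 and 3171 CPM on SoftY (5.07). Txnrd1, Prdx6 and Prdx1, of the thioredoxin and peroxiredoxin systems, changed by -3.97, -3.72 and -2.12. Unfolded protein response genes fell in 20 of 30 and rose in 4, with the ER chaperone Hspa5 going from 5234, 5319 and 4887 to 2631, 2679 and 2449 CPM (-0.99), Creld2 changing by -1.49 and Manf by -1.14. ATF4-dependent amino acid genes were mixed, 7 up and 11 down of 25, and so were heat shock genes, 6 up and 9 down of 22: Hspa9 changed by -1.91, Hsp90ab1 by -1.01 and the small heat shock protein gene Cryab by 2.09.

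The protein synthesis machinery was lower across its parts. All 30 ribosome biogenesis genes tested fell (median -1.59), as did all 18 tRNA synthetases tested (median -0.70) and 56 of 59 cytosolic ribosomal proteins, with none higher (median -1.11). Ncl, nucleolin, went from 940.3, 977 and 972 to 229, 224 and 242 CPM (-2.06), Nhp2, of the pseudouridylation complex, from 219, 223 and 193 to 34.9, 48.8 and 27.8 CPM (-2.53), and Rplp0 from 749.9, 729 and 679.6 to 293, 289 and 298 CPM (-1.29). For these 3 genes the groups did not overlap. Ribosomal protein genes have many processed copies in the genome, so their counts may be split and their levels are uncertain. Among the synthetases Wars changed by -1.40 and Nars by -1.04. The 31 proteasome subunits tested also fell, by a median of -0.63, for example Psmd2 (-0.64) and Psma6 (-1.16).

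Metabolic genes separated by pathway. Sterol synthesis and uptake genes rose in 22 of 25 and fell in 1 (median 1.00): Hmgcs1, which makes the HMG-CoA of the pathway, went from 37.3, 28.7 and 31.9 to 141, 127 and 118 CPM (1.98 ± 0.12, adjusted p = 7.67e-15), and Sqle from 95.8, 109 and 79.5 to 281, 311 and 238 CPM (1.54). Srebf2, the transcription factor of the pathway, was at 178 ± 12.8 CPM fresh and 204 ± 7.03 CPM on SoftY (mean ± SD, n = 3) and did not pass the test, though it did under 4 alternatives. Fatty acid and adipogenic genes rose in 11 of 24 and fell in 4: Apoe went from 96.6, 87.4 and 80.7 to 1406, 1488 and 1575 CPM (4.08), lipoprotein lipase, Lpl, rose by 2.02 and the fatty acid carrier Cd36 changed by -3.25. Glycolysis fell in 14 of 21 and rose in 2 (median -0.84): Pkm, pyruvate kinase, went from 3993, 3975 and 3837 to 1416, 1390.4 and 1375 CPM (-1.50), Ldha changed by -1.42, the glucose transporter Slc2a1 by -1.92 and the lactate exporter Slc16a3 by -2.40, whereas Ldhb rose by 1.81. Nuclear genes of the respiratory chain fell in 30 of 43 and rose in 1 (median -0.49), with Cyc1 at -1.04 and Atp5b at -0.71. Hypoxia genes were even, 7 up and 7 down of 19.

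SREBP factors bind sterol response elements, 1 form of which is TCACNCCAC. 18 of 26 listed genes had RefSeq entries, and 1 of their 21 promoters held it, against 1.05% of all. The motif was also in 1 of 21 chemokine promoters and 1 of 19 contractile promoters, so the sterol list did not stand apart. The sterol promoter with the motif is that of Hmgcs1 (chr13:119690101-119690350, + strand), printed with the match in capitals.
Hmgcs1: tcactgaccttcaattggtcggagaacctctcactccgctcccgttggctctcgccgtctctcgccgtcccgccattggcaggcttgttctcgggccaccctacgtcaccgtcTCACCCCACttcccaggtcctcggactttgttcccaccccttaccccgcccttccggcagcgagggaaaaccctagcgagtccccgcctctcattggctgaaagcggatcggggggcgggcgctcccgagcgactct

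Among cell cycle genes of aged cells, those of DNA replication mostly fell and most of those of mitosis were not called. DNA replication genes fell in 28 of 37 and rose in 1 (median -0.85): Mcm2, of the replicative helicase, went from 207, 224 and 190.2 to 75.02, 65.2 and 74.3 CPM (-1.53), and Rrm2, of ribonucleotide reductase, from 625, 643 and 567 to 222, 232 and 190.1 CPM (-1.51). Mitosis genes rose in 13 of 34 and fell in 2 (median 0.18): Ccnb2, a mitotic cyclin, was at 40.2, 42.9 and 33.5 CPM fresh and 76.7, 66.8 and 73.9 CPM on SoftY (0.90), and Mki67 at 38.6, 28.7 and 35.4 and 58.6, 41.1 and 57.7 CPM (0.62, adjusted p = 0.00197). Of the 34 mitosis genes 19 were not called, and over all genes tested 27.4% rose and 27.6% fell. No mitosis gene changed more than 2-fold, and without SoftY library 2 the number of falls was 4. The arrest gene Cdkn1a was at 281, 291 and 275 CPM fresh and 342, 354 and 288 CPM on SoftY and did not pass the test (0.22 ± 0.10, adjusted p = 0.0672), but did under 6 alternatives. Cdkn2a was low, at 4.56, 3.33 and 2.76 and 7.33, 7.67 and 6.22 CPM (0.98, adjusted p = 0.0460), and its call was lost under 8 alternatives, among them each of 5 libraries left out in turn. The chromatin proteins Hmga1 and Hmga2, by contrast, fell from a mean of 607 to 10.4 CPM (-5.85) and from 234 to 15.8 CPM (-3.88), and the kinase Plk2 from 2690.3, 2889.8 and 2598 to 253, 213 and 197 CPM (-3.63).

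Genes of resident fibroblasts rose in 14 of 28 cases and fell in 7. Tcf21, a transcription factor of cardiac fibroblasts, went from 11.6, 14.2 and 16.1 to 104, 115 and 126 CPM (3.03), Gsn, gelsolin, from 462, 494 and 441 to 6031, 6131 and 6355 CPM (3.73 ± 0.09, adjusted p = 1.93e-25) and Abca8a rose by 5.41. Among 27 cardiac and mesenchymal transcription factors 8 rose and 5 fell (3 without fresh library 3), with Tbx20 up by 3.54, Sox9 up by 3.16 and Prrx1 at -0.88. Myofibroblast and chondro-osteogenic genes rose in 13 of 17 and fell in 2 (median 3.01). Lysosome and autophagy genes rose in 10 of 33 and fell in 15: Ctsd, cathepsin D, rose by 0.89, and Ctsb changed by -0.86 and Ctss, which myeloid cells express, by -5.26.

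Markers of vascular and other cells moved too, and their part in the results above was not tested. Of 14 endothelial genes tested 2 rose (1 without fresh library 3) and 9 fell (5 of those with a mean of at least 10 CPM), for example Cdh5 from 52.3, 64.5 and 66.1 to 11.6, 16.98 and 19.5 CPM (-1.92), while the summed level of the 16 listed was 678 to 713 CPM fresh and 652 to 708 CPM on SoftY, most of it Eng, which fibroblasts express as well (434 and 531 CPM). Pericyte genes rose in 4 of 6 tested, Notch3 among them from 3 counts over the fresh libraries to 27.2, 41.6 and 44.4 CPM, and the 10 listed summed to 202 to 234 CPM fresh and 587 to 633 CPM on SoftY, of which Pdgfrb was the most part. Schwann cell markers, of which 2 of 8 were tested and both rose, summed to 212 to 253 CPM fresh and 978 to 1047 CPM on SoftY, where nearly all of the sum came from those 2, one of them Cryab (2.09), and Sox10 and Gfra3 had 0 counts in both groups. MHC class II genes summed to 68.5 to 75.6 CPM fresh and 24.9 to 30.1 CPM on SoftY. Of 4 tested, 2 fell (1 without SoftY library 1) and 1 rose, and Cd74 and H2-Aa had 0 counts on SoftY. Epicardial and mesothelial markers summed to 251 to 267 CPM fresh and 225 to 244 CPM on SoftY. Of 4 of these markers tested, 1 rose and 1 fell. The mesothelial gene Upk3b had 1 count in fresh cells and 19.8, 16.4 and 14.9 CPM on SoftY. Krt18, Krt8 and Msln had 0 counts on SoftY, and of these only Krt8 also had 0 counts in fresh cells.

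Young cells placed on the same SoftY substrate gave a comparison that shares no library with that of the aged cells. In them 3129 genes rose (23.1%) and 3124 fell (23.1%). The difference between the responses, tested as an interaction, was called for 1538 genes (11.4%), 797 with the higher response in aged cells (5.89%) and 741 with the lower (5.48%), and 456 (3.37%) and 392 (2.90%) of these differed more than 2-fold. Among the 1538 genes, 344 rose at both ages and 307 fell at both, 52 rose in aged and fell in young cells, 66 fell in aged and rose in young cells, 435 were called in aged cells but not in young and 328 in young but not in aged. With library totals alone the split was 1431 higher and 466 lower (75.4% higher against 51.8%), the median gene being shifted by 0.18. Young cells on SoftY had 2 libraries, so these tests rest on fewer samples than the aged comparison. Those 2 libraries also differed more from each other, with a chi-square of their counts per degree of freedom of 5.74. Pairs of fresh young libraries had 1.99 to 4.34, and replicate pairs of fresh aged cells and aged cells on SoftY 1.81 to 2.64.

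Among immediate early genes 26 of 41 had the lower response in aged cells and 2 the higher (1 without fresh aged library 1, aged SoftY library 2, fresh young library 2 or young SoftY library 2). Nr4a1 was at 40.6, 36.4 and 33.4 CPM in fresh young cells and 246 and 252 CPM in young cells on SoftY (log2 change 2.75 ± 0.17), the opposite of its fall in aged cells, a difference of -7.28 ± 0.26 (adjusted p = 3.83e-19). Egr2 went from 15.8, 23.1 and 21.1 to 127 and 108 CPM in young cells and from 108, 114 and 90.6 to 30.6, 25.2 and 24.1 CPM in aged cells (difference -4.52 ± 0.23, adjusted p = 5.50e-15). Egr1 behaved likewise (-4.34). For these genes the levels were high in young SoftY and fresh aged libraries and low in fresh young and aged SoftY libraries. For Ptgs2 the fresh cells differed, 23.1, 26.6 and 25.8 CPM in young against 403, 475 and 462 CPM in aged, and on SoftY the levels were 15.5 and 14.8 and 9.05, 14.8 and 10.8 CPM, with a difference between ages that did not pass the test (adjusted p = 0.630). The difference between the responses was -4.56 ± 0.37 (adjusted p = 1.53e-10). Hmox1 was also lower in its response in aged cells (-3.21), and 16 of 30 NRF2 targets had the lower response in aged cells against 1 with the higher (2 without aged SoftY library 1 or fresh young library 3). Between the ages, 22 of these 30 were higher and 2 lower in fresh aged cells, and 0 were higher and 1 lower in aged cells on SoftY. Over all genes 12.6% were higher and 12.4% lower in fresh aged cells. On SoftY 0.828% were higher and 1.39% lower, so the SoftY counts of this list do not stand apart.

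Mitosis genes went the other way: 32 of 34 had the higher response in aged cells and none the lower. In young cells on SoftY 33 of them fell and none rose. Between the ages, 33 were lower in fresh aged than in fresh young cells, against 12.4% of all genes, and none was called on SoftY. There only 2.22% of all genes were called, so the lack of calls does not set these 34 genes apart. Mki67 was at 138, 136 and 151 CPM in fresh young and 43.6 and 37.4 CPM in young SoftY libraries (-1.80 ± 0.17), against the rise in aged cells, a difference of 2.42 ± 0.24 (adjusted p = 8.00e-09). On SoftY the libraries of both ages overlapped, and in fresh cells every young library stood above every aged one. DNA replication genes had the higher response in aged cells for 21 of 37 and the lower for none. Here the higher response was for the most part a smaller fall, with a median of -0.85 in aged and -1.87 in young cells. Between the ages, 35 of the 37 were lower in fresh aged cells (12.4% of all genes) and 1 in aged cells on SoftY (1.39% of all genes). The SoftY count does not stand apart from the share of all genes. Among single genes, Spon2, a secreted matrix protein, was at 239, 238 and 244 CPM in fresh young cells and 15.3, 15.4 and 13.8 CPM in fresh aged cells, but at 295 and 292 and 239, 245 and 225 CPM on SoftY (difference 3.70 ± 0.12, adjusted p = 1.53e-19). Ccn5 (3.84), Col1a1 (1.85) and Fn1 (1.74) also rose more in aged cells. Cyp26b1, which degrades retinoic acid, fell in young cells from 56.4, 56.02 and 69.5 to 8.91 and 13.5 CPM and read 12.03, 20.8 and 14.2 and 22.8, 22.5 and 22.8 CPM in aged cells, where it did not pass the test (difference 2.99 ± 0.40, adjusted p = 2.16e-06).

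**Figure D3:**
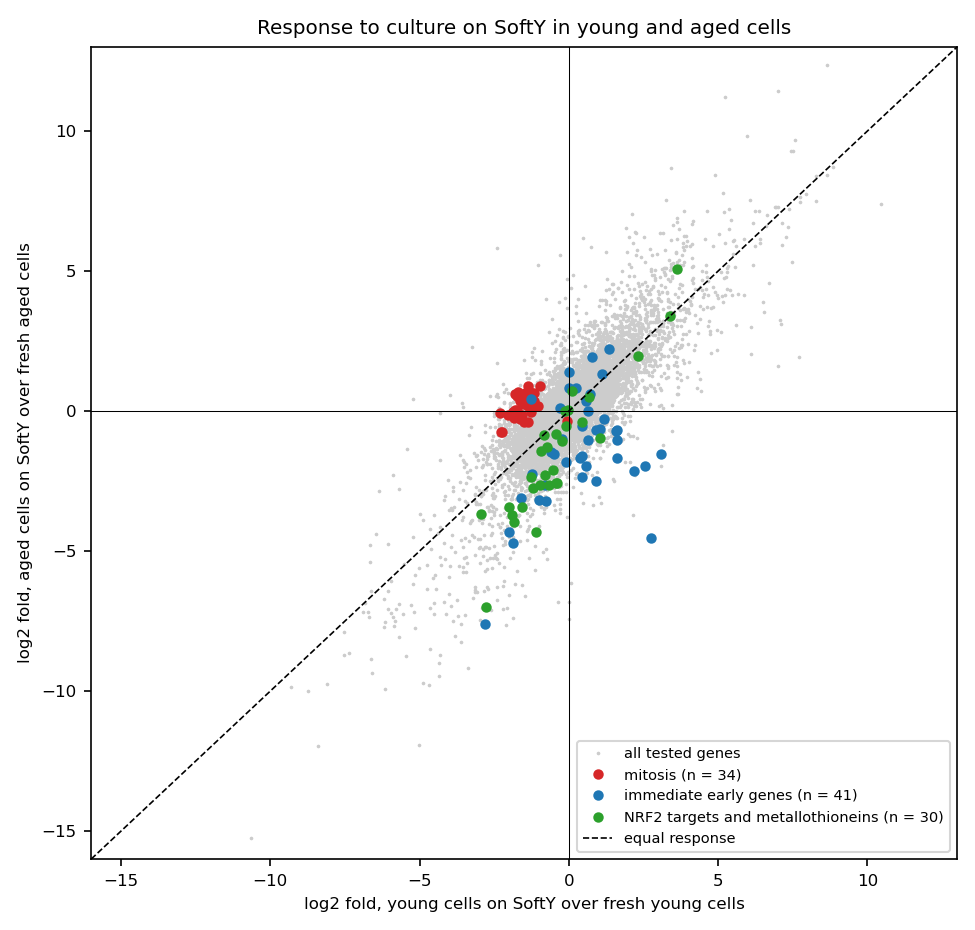
Log2 fold of SoftY over fresh in young cells (horizontal axis) against aged cells (vertical axis) for 13523 genes as grey points, with mitosis (red), immediate early (blue) and NRF2 target genes (green) drawn over them and a dashed line where the responses are equal. Nearly all mitosis genes lie above the line and most immediate early and NRF2 target genes below it.

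Between the ages, fewer genes were called on SoftY than in fresh cells, a difference in counts that was not tested itself. Aged and young cells on SoftY differed in 300 genes (2.22%), 112 higher (0.828%) and 188 lower (1.39%) in aged cells, and fresh aged and young cells in 3383 (25.0%), 1703 higher (12.6%) and 1680 lower (12.4%). Over 2-fold, 30 genes were higher (0.222%) and 77 lower (0.569%) on SoftY, and 566 higher (4.19%) and 715 lower (5.29%) in fresh cells. With library totals alone the fresh comparison split into 1079 higher and 2697 lower (28.6% higher against 50.3%), the median gene being shifted by -0.16. The SoftY comparison has 1 library fewer, and leaving out single libraries gave 46 (without young library 1) to 76 higher and 121 (without young library 1) to 151 lower, and 65 to 68 higher without any 1 of the 3 aged libraries. Both sets share no library: 119 genes were called with the same sign in both, 3.52% of the fresh calls and 39.7% of the SoftY calls, and 80 were called with opposite sign. Genes lower in aged than in young cells on SoftY included Nr4a1 (-4.71 ± 0.20) and Egr1 (-2.42), which were higher in aged cells when fresh (2.57 and 1.92), and Bmp3 (22.4, 19.2 and 27.4 CPM aged, 134 and 133 CPM young, -2.52), Enpp2, which makes lysophosphatidic acid (-2.68), Eln (-2.52), Ccl2 (-1.49) and Col1a1 (-0.52). Higher in aged cells were Cmpk2 (1.72), Ifit1 (1.13), Col28a1 (1.31), Timp3 (1.13) and Tubb3 (1.18).

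Aged cells on StiffA, the stiff gel with aged matrix, differed from those on SoftY in 585 genes (4.33%), 287 higher (2.12%) and 298 lower (2.20%), 37 (0.274%) and 110 (0.813%) of them over 2-fold. These counts moved with single libraries, to 152 to 282 higher and 163 to 333 lower, the fewest without SoftY library 3 and the most without StiffA library 3. Without SoftY library 1 or 2 the lower genes were 197 and 183, and without StiffA library 1 or 2 there were 174 and 170 higher and 170 and 173 lower. Stiffness and matrix age both change between these substrates and cannot be told apart here. The SoftY and StiffA libraries also carry different letters in their library names, so a step that follows the letter cannot be told apart either. Contractile genes were higher on StiffA in 6 of 19 and lower in 1: Acta2 was at 1286, 1250.2 and 1121 CPM on StiffA against 700.2, 715 and 680.2 CPM on SoftY (log2 0.80 ± 0.12, adjusted p = 5.02e-05), and Cnn1 at 28.9, 33.02 and 32.2 against 12.9, 9.31 and 12.03 CPM (1.44). For both genes the SoftY libraries lay between the fresh and the StiffA libraries, without overlap. Of 34 mitosis genes 11 were higher on StiffA and 0 lower, of 21 glycolysis genes 9 and 0, and of 25 sterol genes 10 and 0. Without SoftY library 3 the rises were 5 in each of these 3 lists and 4 among contractile genes, and without SoftY library 1 or StiffA library 2 there were 6 among mitosis genes. Timp3 was higher on StiffA by 1.29, Lox by 1.02, Col11a1 by 1.04, Tgm2, a crosslinking transglutaminase, by 1.37, Map2 by 1.32, Cpxm2 by 2.04 and Ctla2a by 1.46. 5 of 14 endothelial markers were higher on StiffA and none lower, among them Pecam1 (1.44, adjusted p = 0.0741 without StiffA library 1), Tie1 (2.11) and Emcn (1.63), and the part of such cells was not tested.

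Interferon-stimulated genes were lower on StiffA in 23 of 41 and higher in 0. Ifit1 was at 409, 418 and 417 CPM in fresh aged cells, 129, 189 and 233 CPM on SoftY and 36.5, 40.2 and 53.05 CPM on StiffA (-2.10 ± 0.18 for StiffA over SoftY, adjusted p = 2.84e-09). Cmpk2 had the same order, with 21.99, 25.7 and 43.99 CPM on SoftY and 2.89, 3.23 and 4.74 CPM on StiffA (-3.10). For Ifit1 SoftY library 3 was the highest and library 1 the lowest of its group, and none reached the StiffA range. Among the genes lower on StiffA than on SoftY were Sned1, a matrix protein (-2.37), Cnmd (-2.45), Enpp2 (-2.36), Serpina3f (-2.36), which has near-identical neighbours, Cilp (-2.16) and Apoe (-1.70). Resident fibroblast genes were lower on StiffA in 11 of 28 and higher in 2 (0 without SoftY library 2, 1 without SoftY library 3 or StiffA library 2), for example Gsn (-0.90) and Pdgfra (-0.69).

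**Figure D4:**
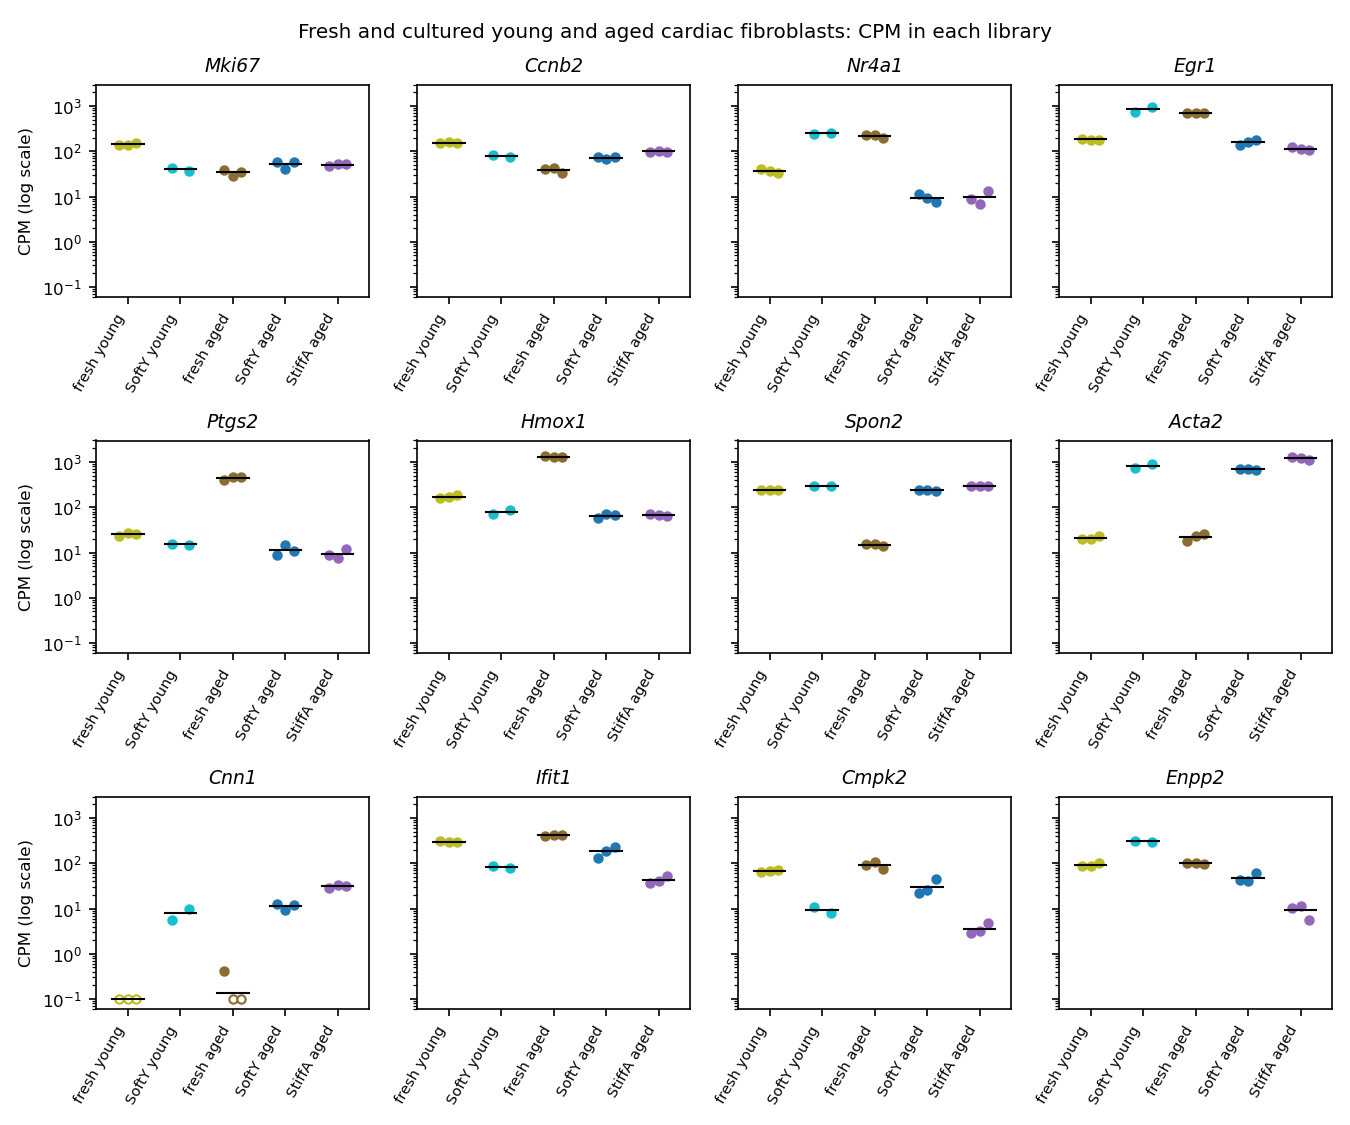
CPM of 12 genes on a log axis in each library (points) of fresh young, young SoftY, fresh aged, aged SoftY and aged StiffA cells, with the group mean as a bar and values of 0 as open points at the lower end. Nr4a1 and Egr1 are high in young SoftY and fresh aged libraries, Ptgs2 and Hmox1 in fresh aged libraries, Acta2 and Cnn1 rise from fresh over SoftY to StiffA, and Ifit1 and Cmpk2 fall in that order in aged cells.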

How the data were processed

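RNA-seq was made from 29 libraries of mouse cardiac fibroblasts in 10 groups, with 20 ng of RNA per library and 48 h of culture per the labels' protocols. The authors deposited HTSeq counts per gene, raw whole numbers, for 55357 genes, and the submitters' processing notes name STAR 2.7.8a and the build mm39. Whether counting used strand, the HTSeq version and the gene annotation's release are not given in those sources, so overlapping, antisense and near-identical genes are uncertain.

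Groups were taken from sample titles. edgeR 4.0.16 in R 4.3.3 was run on the counts as deposited: filterByExpr by group kept 13523 genes, TMM factors scaled the libraries, and a quasi-likelihood F test with 19 residual degrees of freedom was fitted over all 29 libraries, with Benjamini-Hochberg adjustment over all genes tested. CPM of a gene are on the TMM-scaled total of the tested genes, which held 99.5% of the counts, and sums of marker lists on that of all genes. Fitted folds use edgeR's prior count of 0.125. Where a group had no count, the fold is a bound against a floor of 3 counts over that group. Intervals and floors cover counting error only. DESeq2 1.42.0 and limma 3.58.1 (voom) were alternatives, beside other scalings, filters, a 2-fold test, fewer libraries and a block by replicate number.

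The genes named are those with the 12 largest changes in each direction (8 for the interaction and for StiffA), up to 4 largest and 4 most abundant members per list, and a short set named in all cases. The largest changes were taken among called genes with a mean of at least 10 CPM. Except for the interaction, the libraries of the groups compared also had to be without overlap. Genes without a symbol, provisional names and pseudogenes were left out of the largest changes. Dusp1, Cxcl2 and Isg15 were instead chosen for their promoters, and a few genes chosen by the rule were left out of the text. The gene lists, the members and these rules were chosen with earlier results of these data known. The fitting was tested on simulated data with known changes in aged cells on SoftY, among genes with a mean of at least 10 CPM. It called 24 of 67 changes of 1.5-fold, 46 of 67 of 2-fold and 66 of 66 of 4-fold. Among its 140 calls 4 were false. Far fewer genes were changed there than were called in the data, so these shares need not hold for the data. A gene that did not pass the test may still differ. Within each group of the 6 libraries, every pair of replicates differed by more than sampling noise. Promoter coordinates are of GRCm38.p6 and gene coordinates of mm39.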

Additional observations from a re-analysis of the deposited data

Results flagged for a closer look

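The 33 genes given here were kept because their response to culture on SoftY was called different between the ages. The test was edgeR's quasi-likelihood test of the interaction over all libraries. Of the 33, 16 were chosen for the largest called differences, and the others come from the short set named in all cases. Their number is therefore no result, and over all genes tested 11.4% were called. The response was higher in aged cells for 14 of the 33 and lower for 19. All values are log2 differences, aged minus young.

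Among the genes with the lower response in aged cells were the immediate early genes Nr4a1 (-7.28), Egr2 (-4.52), Egr1 (-4.34) and Fos (-2.32). Egr1 and Nr4a1 encode transcription factors that switch on within minutes, and both were lower in aged than in young cells on SoftY. Inflammatory mediators included Cxcl1 (-3.81), Ccl2 (-1.84), Ccl3 (-4.83), Il1a (-5.80) and Ptgs2 (-4.56). The proteases Mmp13 (-6.90) and Mmp3 (-1.80) and the stress genes Hmox1 (-3.21) and Cdkn1a (-0.90) also had the lower response. Macrophage markers Adgre1 (-5.12), Cd68 (-2.44) and C3ar1 (-4.87) did so together with them, and the part of such cells in these differences was not tested. The complement gene C3 (-1.46) and the matricellular genes Ccn2 (-1.27) and Thbs1 (-1.28) rose less, or fell more, in aged cells.

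The higher response in aged cells was seen for the matrix genes Col11a1 (5.99), Col1a1 (1.85), Col3a1 (0.78), Fn1 (1.74), Postn (2.29), Spon2 (3.70) and Ccn5 (3.84). It was also seen for the proliferation marker Mki67 (2.42), the retinoic acid hydroxylase Cyp26b1 (2.99), the cytochrome Cyp2d22 (3.30), the pericyte receptor Notch3 (3.28), the fibroblast factor Tcf21 (1.06), Scel (4.40) and Serpina3i (4.62), the last with near-identical neighbours. Adgre1, Ccl3, Il1a, Col11a1 and Scel have a group without counts, and Mmp13, C3ar1, Serpina3i, Cyp2d22 and Notch3 a group near 0, so their differences depend on the prior count and are no bounds. The calls of Adgre1, Ccl3, Il1a, Scel and Tcf21 were lost when single libraries were left out (Adgre1 without young SoftY library 2 or any of the aged SoftY libraries, Ccl3 and Il1a without fresh young library 2, fresh aged library 2 or 3, young SoftY library 1 or any of the aged SoftY libraries, Scel without fresh young library 1 or any of the fresh aged libraries, Tcf21 without fresh young library 1, fresh aged library 1 or young SoftY library 1). That of Cyp2d22 was lost without fresh young library 2.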

How the results depend on the processing

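No value of a gene that the naming rule chose changed sign where it was called: 7657 gene values kept their side of the threshold over the alternatives run, 208 lost it and 26 gained it. For aged cells on SoftY over fresh aged cells, other scalings, filters, DESeq2, limma voom and fewer libraries left both counts within 1.5 times, and a test against a 2-fold change called 1241 higher and 958 lower. Leaving out 1 library at a time gave 3328 to 3498 higher and 3232 to 3451 lower. With library totals alone the interaction called 1431 higher and 466 lower, and aged over young fresh cells 1079 higher and 2697 lower. Aged over young cells on SoftY had 56 higher with only the groups compared, 304 lower without a filter on low counts, and 46 to 76 higher and 121 to 151 lower with 1 library left out. StiffA over SoftY had 521 lower without a filter, 485 lower with only the groups compared, and 152 to 282 higher and 163 to 333 lower with 1 library left out. With a replicate block the main comparison called 3771 higher and 3864 lower, keeping 98.9% of its calls, the interaction 891 and 826, aged over young cells 125 and 275 on SoftY and 1415 and 1532 when fresh, and StiffA over SoftY 369 and 509. The block took its numbers from the titles. Young SoftY library 2 by title has the library name E3, so its place in the block is uncertain. The replicate numbers do not pair fresh and SoftY libraries by the labels: the deviations of same-numbered aged libraries correlated at 0.04, 0.08 and 0.17, each the highest for its library, which is a hint from the data and not the design. For library 1 the lead was small, 0.037 against 0.030 and 0.032. Aged SoftY library 1 correlated more with StiffA library 2 (0.085) than with StiffA library 1 (0.044). SoftY libraries 2 and 3 correlated most with the StiffA library of their number (0.12 and 0.21). The causes of the shifts in the counts of called genes were not tested. Counts of list members moved by more than 1.5 times in 140 cases, 70 of them under the test against a 2-fold change, and stayed within it in 2206. Depth limits genes under 10 CPM, which rest on about 18.3 to 25.5 counts or fewer in each of the 6 libraries.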
